A study of Mus musculus with 72 samples.

Results

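Daily fasting of 16 h (IF16) was set against ad libitum feeding (AL) in mouse brain at 12 h of reperfusion after stroke. The comparison holds the 3 IF16 and the 3 AL libraries whose titles give that stage and regimen, which are 6 of the 72 libraries of the series. All 6 came from C57BL/6 mice aged 7 months, had 1 h of middle cerebral artery occlusion and differed by label in feeding alone. IF16 mice went 16 h of each day without food for 4 months before the stroke, and AL mice had food at all times. The series as a whole crossed 4 regimens, IF16, 12 h of daily fasting (IF12), every-other-day fasting (EOD) and AL, with sham surgery, ischemia alone and 3, 12, 24 and 72 h of reperfusion, at 3 libraries a group. Each library is messenger RNA from a slice of the middle of the occluded hemisphere, so the lesion, spared tissue and every cell type in the slice were pooled. In such bulk samples fewer cells of a type and less RNA per cell cannot be told apart. Nothing in the labels ties the 3 libraries of a group to 3 different mice. The p-values therefore weigh a spread that may not be the one between mice. No source used here gives the sex of the mice, the hour of dissection or the time since their last meal.

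Occlusion of the middle cerebral artery starves the striatum and the overlying cortex of blood, and its removal restores flow. Injured and depolarized neurons first switch on immediate early genes, which need no new protein for their induction and encode transcription factors of the AP-1, EGR and NR4A families together with phosphatases that damp the kinases upstream. Later the damaged tissue makes chemokines, adhesion molecules and proteases, neutrophils and monocytes enter, and astrocytes become reactive. The question put by the comparison is how a fasting regimen before stroke changes that transcription in the first day.

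The 6 libraries held 19478053 to 21878056 counts in IF16 and 21393879 to 21681404 counts in AL, and mitochondrial transcripts took 2.81 to 3.06% of counts in IF16 and 2.32 to 3.61% in AL. Levels are a gene's counts per 1000000 counts of its library (CPM), scaled by the trimmed mean of M values (TMM) over all 72 libraries, and fold changes are log2 of IF16 over AL with their standard error. In a principal component analysis of the 12 libraries at 12 h, the first component took 37.4% of the variance and the second 17.1%. On the first, AL replicates 1 to 3 lay at -27.4, 14.9 and -47.2 and IF16 replicates 1 to 3 at 36.7, -13.9 and 30.3. AL replicate 1 stood apart on the second component, at -58.1, while the other 11 libraries lay between -10.2 and 29.1. By the chi-square of counts per gene, AL replicate 3 differed most from the other AL libraries (78 and 84.8, against 49.6 between replicates 1 and 2). The choroid plexus transcript Ttr, which encodes transthyretin, was at 2300, 2650 and 1560 CPM in IF16 and at 48.6, 1460 and 1860 CPM in AL, so AL replicate 1 held far less choroid plexus RNA than the other 5. All 10 choroid plexus markers were lowest, among AL libraries, in that same library. Within AL, replicate 1 was also the highest library for all 6 tested neutrophil markers and all 9 tested monocyte and border macrophage markers, replicate 2 was the lowest for 16 of 17 cytokine genes, and replicate 3 was the highest for 18 of 19 heat shock genes. Ttr is named here because its level sets a library apart, after its values were seen.

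No gene passed a Benjamini-Hochberg adjusted p of 0.05 among 16242 genes tested with edgeR's quasi-likelihood test (0%), and the smallest adjusted p was 0.366. At an unadjusted p under 0.05, 482 genes were higher in IF16 (2.97%) and 924 were lower (5.69%). DESeq2, run on the same 12 libraries, called 86 genes, 12 of them higher in IF16 (0.0739%) and 74 lower (0.456%), or 0.529% in all. Leaving out AL replicate 1 gave 2 edgeR calls and leaving out AL replicate 2 gave 9, all 9 lower in IF16, while leaving out any of the other 4 libraries gave 0. All 3 IF16 libraries lay below all 3 AL libraries for 774 genes (4.77%) and above them for 615 genes (3.79%), and these shares are the background for every count below. The median log2 fold change over all genes tested was -0.02. Of the 16242 genes, 8605 had a negative log2 fold change, which is the background for the counts of negative members below. Since no gene was called by edgeR, the values of single genes below are given as measured, with the order of the libraries.

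On the lower side the 3 smallest p-values belonged to Fosb, Plat and Dusp5, and they are given here with Egr2, which was ninth. Fosb, an AP-1 subunit of the FOS family, was at 14.4, 14 and 13.1 CPM in IF16 and at 45.4, 32.9 and 26.8 CPM in AL. The 3 IF16 libraries were within 2 CPM of each other and all lay under the lowest AL library. Its log2 fold change was -1.35 ± 0.21, with an unadjusted p of 3.27e-05 and an adjusted p of 5.13e-05 by DESeq2. Plat, which encodes the tissue plasminogen activator that dissolves clots and also acts on the blood-brain barrier, was at 22.7, 30.5 and 40.2 CPM in IF16 and at 110, 54.5 and 81 CPM in AL (log2 fold change -1.40 ± 0.25). Dusp5, a nuclear phosphatase of the kinase ERK, was at 10.8, 16.3 and 18.4 CPM in IF16 and at 42.8, 32.3 and 64.3 CPM in AL (-1.62 ± 0.29). Egr2, a zinc finger transcription factor, was at 2.13, 2.18 and 2.25 CPM in IF16 and at 8.05, 16.2 and 11.5 CPM in AL (-2.44 ± 0.51). Without AL replicate 1, which stood apart on the second component, the log2 fold change was -1.09 for Fosb, -1.10 for Plat, -1.64 for Dusp5 and -2.64 for Egr2. Without AL replicate 2 it was -1.36 for Fosb, -1.60 for Plat, -1.79 for Dusp5 and -2.13 for Egr2. In the GENCODE annotation of GRCm38, Fosb lies at chr7:19302696-19310051 (minus strand), Plat at chr8:22757727-22782844 (plus strand), Dusp5 at chr19:53529109-53542431 (plus strand) and Egr2 at chr10:67535475-67542188 (plus strand). For all 4 genes the groups did not overlap, and for Egr2 the IF16 libraries were nearly equal while the AL libraries differed among themselves.

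The other genes of the 10 with the smallest p on the lower side were Rara, a retinoic acid receptor (-1.21 ± 0.23), Lrg1, a secreted glycoprotein of the acute phase response (-1.57 ± 0.32), Rtn4rl2, a receptor of the Nogo receptor family (-1.31 ± 0.26), Grasp, a scaffold protein at glutamatergic synapses (-1.12 ± 0.23), Sdcbp2, a PDZ domain adaptor (-1.11 ± 0.23), and Gm42418. Rara was at 13.7, 21.3 and 15.6 CPM in IF16 and at 48.5, 25.6 and 42.8 CPM in AL, with AL replicate 2 closest to the IF16 libraries. Rtn4rl2 kept that order, at 43.8, 69.5 and 50 CPM in IF16 and 166, 78.4 and 161 CPM in AL. Gm42418 was at 48.6, 60.4 and 54.6 CPM in IF16 and at 149, 291 and 133 CPM in AL (-1.81 ± 0.36). It is a long noncoding RNA locus whose exons overlap an annotated ribosomal RNA gene on the opposite strand, and no source used here says whether the authors' counting used strand. Reads of its 2 opposite-strand neighbours and of an antisense gene of Dusp5 may be counted with them.

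On the higher side the smallest p belonged to Avp, the gene of the hormone vasopressin, made by neurons of the hypothalamus. Avp was at 120, 258 and 69.8 CPM in IF16 and at 15.3, 5.38 and 0.993 CPM in AL, a log2 fold change of 4.37 ± 0.82 and the largest fitted increase of all genes tested. The gene lies at chr2:130580620-130582554 (minus strand). Oxt, the gene of oxytocin from the same nuclei, was at 16.7, 30.4 and 9.52 CPM in IF16 and at 6.15, 0.721 and 0.497 CPM in AL (2.93 ± 0.73). The groups did not overlap for either gene, although both varied widely within each group. Without AL replicate 1, Oxt was called by edgeR (4.96 ± 0.58, adjusted p = 0.0254) and Avp was not (5.57 ± 0.90, adjusted p = 0.404). Sim1 and Otp, transcription factors of the developing hypothalamus that remain in adult neurons there, had log2 fold changes of 3.58 ± 0.85 and 2.17 ± 0.76, also without overlap. In all, 4 of 9 tested hypothalamic markers were above AL in all 3 IF16 libraries, against 3.79% of all genes, and the list's median was 0.83, with a range of 0.26 to 2.53 when each library was left out in turn. The summed level of the 12 markers was 92.6 to 343 CPM in IF16 and 31.3 to 42.5 CPM in AL. Of the sums of 153, 343 and 92.6 CPM in IF16, Avp alone made up 120, 258 and 69.8 CPM. In AL it made up 15.3, 5.38 and 0.993 CPM of 34.6, 42.5 and 31.3 CPM. The separation of the sums thus mostly restates Avp, and with Avp and Oxt taken out the sums of the groups overlap. The amount of hypothalamus in the slices was not measured and its part in these values was not tested.

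The other 9 genes of smallest p on the higher side had smaller differences. Cxcl12, a chemokine made by vessel and meningeal cells, was at 74.4, 45.7 and 31.2 CPM in IF16 and at 25.6, 24.3 and 22.7 CPM in AL (1.06 ± 0.26). Lrrc55, an auxiliary subunit of calcium-activated potassium channels, was at 17.3, 12.7 and 16.2 CPM in IF16 and at 6.29, 9.9 and 5.64 CPM in AL (1.08 ± 0.23). Hs3st5, an enzyme that modifies heparan sulfate, was at 6.97, 6.55 and 7.17 CPM in IF16 and at 3.65, 4.47 and 4.15 CPM in AL (0.75 ± 0.18). The remaining 6 were Bche, which encodes butyrylcholinesterase, Trim59, Slc16a4, of the monocarboxylate transporter family, Cdr1 and the noncoding B230312C02Rik and A230009B12Rik, with log2 fold changes between 0.77 and 1.93. Exons of Cdr1 and of Lrrc55 overlap annotated genes on the opposite strand, so their reads may be mixed with those of the neighbours.

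**Figure D1:**
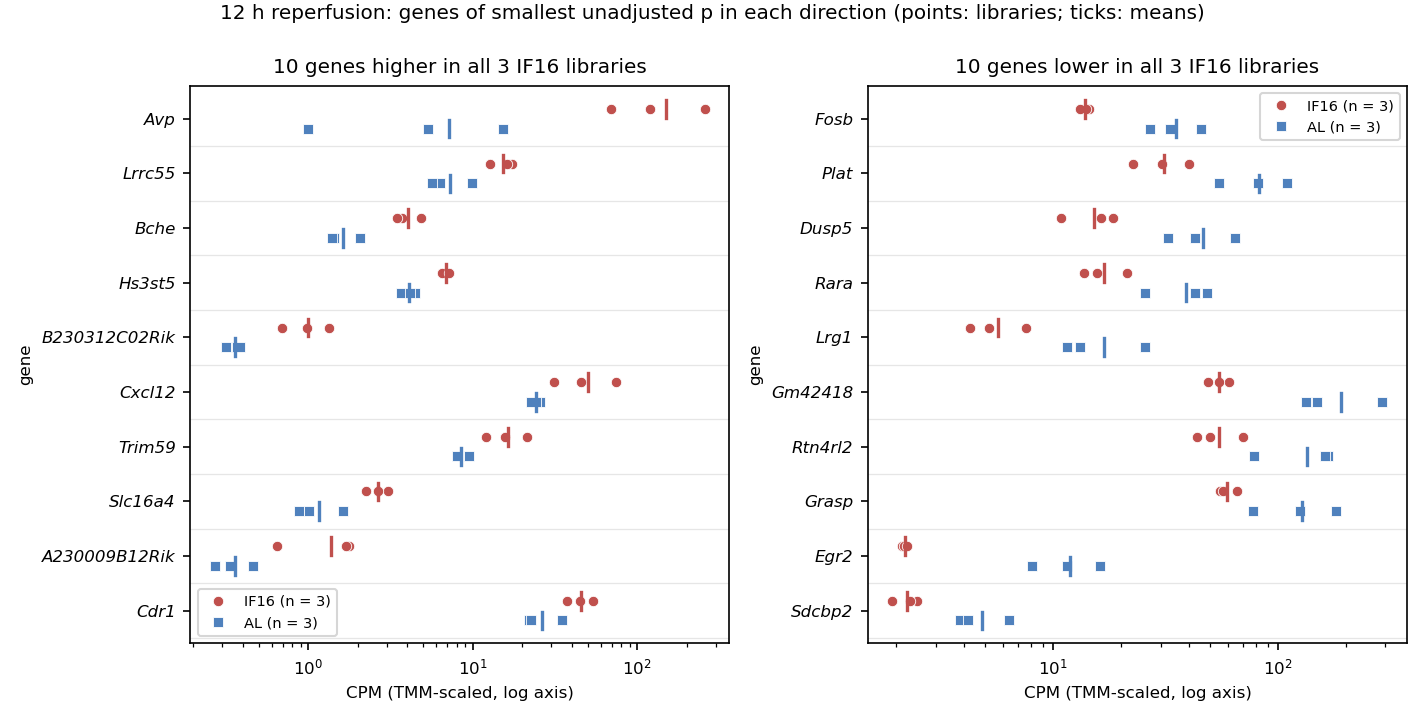
Level of the 10 genes with the smallest unadjusted p in each direction at 12 h of reperfusion, in TMM-scaled CPM on a log axis. Each circle is an IF16 library and each square an AL library, 3 of each, with ticks at the means. The groups do not overlap for any of these genes, which the choice of genes required, and Avp has the widest separation while the IF16 libraries of Egr2 and Fosb are nearly equal.

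By count, immediate early genes had more members below AL than any other of the 46 lists, and theirs was the largest list. By share, neutrophil markers and monocyte and border macrophage markers had more, at 66.7% each. All 30 immediate early genes were tested, 29 had a negative log2 fold change and 13 were below AL in all 3 IF16 libraries (43.3%, against 4.77% of all genes tested). At an unadjusted p under 0.05, 20 were lower and none was higher, and DESeq2 called 6 lower. The median log2 fold change was -1.32, beside -0.02 over all genes. The list's summed level was 1150 to 1610 CPM in IF16 and 2010 to 3810 CPM in AL. Leaving out each library in turn kept the median between -1.49 and -1.05, with -1.05 reached without AL replicate 1.

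Among AP-1 subunits, Junb was at 44.2, 73.7 and 70.7 CPM in IF16 and at 259, 144 and 114 CPM in AL (-1.46 ± 0.36). Fos was at 10.1, 20.8 and 10.6 CPM in IF16 and at 132, 43.7 and 39.1 CPM in AL (-2.37 ± 0.70). Fosl2 was at 41.7, 38.2 and 36.1 CPM in IF16 and at 103, 47.3 and 119 CPM in AL (-1.22 ± 0.35). These 3 did not overlap between the groups, whereas Jun did, at 62.5, 110 and 69 CPM in IF16 and 244, 103 and 317 CPM in AL (-1.46 ± 0.38). Maff, a small MAF protein that pairs with other basic leucine zipper factors, had a log2 fold change of -2.54 ± 0.77 without overlap. Btg2, a regulator of proliferation that p53 and neuronal activity also induce, was at 12.3, 15.9 and 17.2 CPM in IF16 and at 41.4, 33.2 and 44.3 CPM in AL (-1.39 ± 0.33). Among factors bound to neuronal activity, Npas4 was at 11.3, 12.7 and 7.82 CPM in IF16 and at 16.9, 32.5 and 47 CPM in AL (-1.60 ± 0.58), Nr4a1, an orphan nuclear receptor, had -0.92 ± 0.29, and Egr4 had -0.77 ± 0.24, all without overlap. Dusp1, a phosphatase of stress kinases, had -0.88 ± 0.27 and Ier2 -1.30 ± 0.48, also without overlap. Egr1, a common marker of neuronal activity, overlapped, at 165, 122 and 145 CPM in IF16 and 241, 237 and 162 CPM in AL (-0.57 ± 0.24), as did Arc, a synaptic protein whose RNA moves into dendrites, at 94, 367 and 123 CPM in IF16 and 204, 320 and 1440 CPM in AL.

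AL replicate 2 was the lowest AL library for 16 of the 30 genes, and IF16 replicate 2 the highest IF16 library for 16. Atf3, a transcription factor of injured neurons, overlapped widely, with 1.14, 20.3 and 2.21 CPM in IF16 and 43.5, 1.73 and 62.7 CPM in AL.

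**Figure D2:**
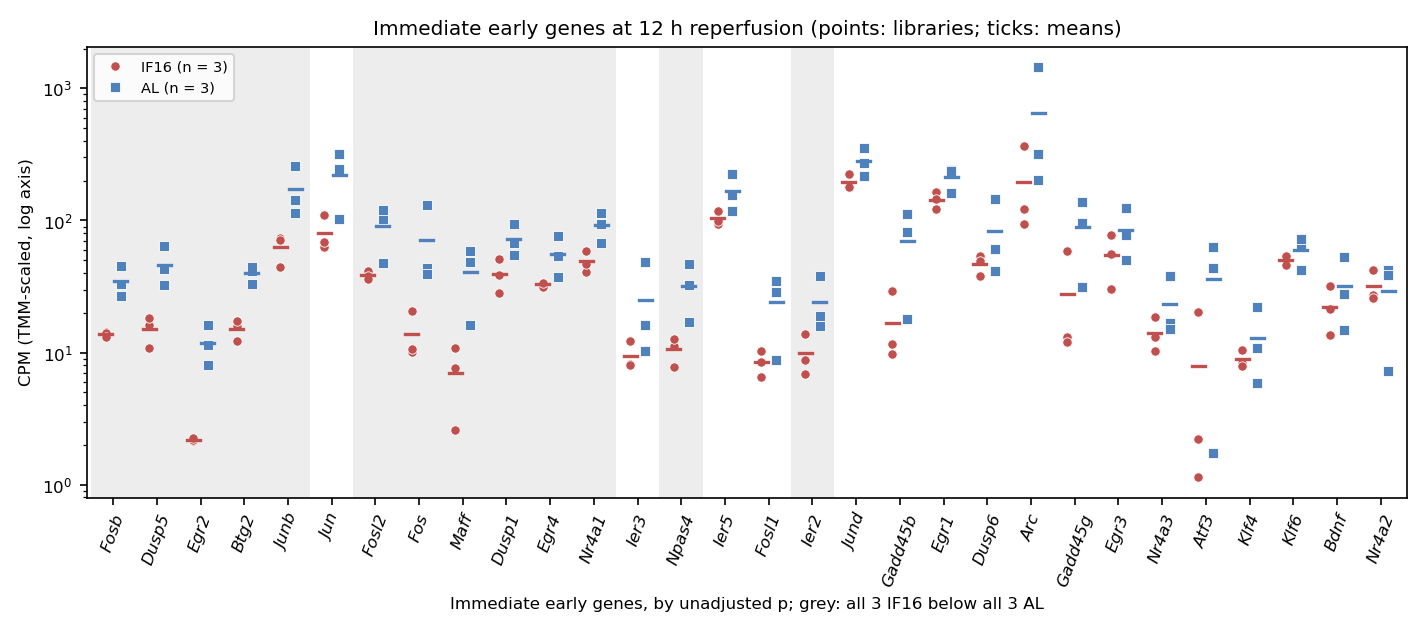
Level of all 30 immediate early genes at 12 h of reperfusion, in TMM-scaled CPM on a log axis, ordered by unadjusted p. Circles are the 3 IF16 libraries, squares the 3 AL libraries and ticks the means, and grey bands mark the 13 genes whose 3 IF16 libraries all lie below the 3 AL libraries.

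The start sites of 3 of these genes are shown because calcium and growth factor signals reach immediate early genes through short promoter motifs. RefSeq windows on GRCm38.p6, from 250 bases before to 50 bases after the annotated start, were matched for 25 of the 30 genes and searched on both strands, and each is printed on the gene's own strand. The cyclic AMP response element TGACGTCA was found in 2 of the 25 windows, beside 1.87% of 27025 windows of all genes. The CArG box, to which serum response factor binds, was found in 1 of the 25, beside 1.55% of all windows, and the AP-1 site TGANTCA in none, beside 7.87%. Capitals mark the response element of Btg2 (chr1:134079106-134079405, minus strand) and the 2 adjoining CArG boxes of Dusp5 (chr19:53528895-53529194, plus strand), and the window of Fosb (chr7:19309996-19310295, minus strand) held no match, so it has no capitals.
Fosb: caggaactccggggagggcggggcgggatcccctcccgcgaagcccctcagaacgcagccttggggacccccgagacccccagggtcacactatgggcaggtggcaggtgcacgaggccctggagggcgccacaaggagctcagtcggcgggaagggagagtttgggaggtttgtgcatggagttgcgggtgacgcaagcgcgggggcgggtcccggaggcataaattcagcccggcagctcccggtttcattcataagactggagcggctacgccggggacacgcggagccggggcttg
Dusp5: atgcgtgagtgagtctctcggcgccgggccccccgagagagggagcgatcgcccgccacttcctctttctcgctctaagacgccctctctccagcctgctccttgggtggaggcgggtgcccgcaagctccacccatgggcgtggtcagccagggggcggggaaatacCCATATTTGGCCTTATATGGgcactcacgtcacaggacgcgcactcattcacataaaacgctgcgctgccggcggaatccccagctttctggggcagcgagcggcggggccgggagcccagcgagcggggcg
Btg2: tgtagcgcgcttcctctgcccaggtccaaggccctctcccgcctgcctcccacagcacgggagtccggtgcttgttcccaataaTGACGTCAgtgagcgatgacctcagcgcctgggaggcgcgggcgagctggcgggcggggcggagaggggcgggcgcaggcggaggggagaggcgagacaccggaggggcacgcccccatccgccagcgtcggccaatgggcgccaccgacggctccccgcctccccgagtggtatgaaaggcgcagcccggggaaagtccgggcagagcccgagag
The element of Btg2 begins at position -166 and the boxes of Dusp5 at positions -82 and -72, counted from the RefSeq start site. A match describes the letters alone, and most of the 25 windows, like that of Fosb, held none of the 3 motifs.

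The place of these genes in the time course was then examined in the IF16 and AL libraries of the other stages. Egr2 was at 15.4, 22.1 and 15.9 CPM in IF16 and 3.57, 8.29 and 6.24 CPM in AL after ischemia alone, and at 68.3, 38.9 and 40.1 CPM in IF16 and 20.9, 13.2 and 24.2 CPM in AL at 3 h. All 3 IF16 libraries thus lay above AL at both earlier stages and below AL at 12 h. The difference between the 12 h contrast and the ischemia contrast was -3.99 ± 0.66 (adjusted p = 0.0289 over 16861 genes, edgeR), the one gene called in that test (0.00593%). Against the 3 h contrast it was -3.80 ± 0.65 (adjusted p = 0.0271, edgeR), and 2 genes were called in that test (0.0119%). The second was Mknk2, a kinase that phosphorylates the cap-binding factor eIF4E, at 42.9, 46.4 and 43.2 CPM in IF16 and 70, 58.8 and 63.4 CPM in AL at 12 h, against 83.3, 90.6 and 89.4 CPM in IF16 and 66.4, 79.1 and 67.7 CPM in AL at 3 h (-0.86 ± 0.15, adjusted p = 0.0271, edgeR). Both tests were added after the values had been seen, and all of their calls were lost when all low-count genes were kept (adjusted p between 0.158 and 0.217, edgeR). Both calls for Egr2 were also lost in a fit of all 72 libraries (adjusted p = 0.2 against ischemia alone and 0.112 against 3 h, edgeR). With library totals alone both 3 h calls were lost (adjusted p = 0.062 for Egr2 and 0.278 for Mknk2, edgeR), and Mknk2 lost its call with only the groups compared (adjusted p = 0.499, edgeR). DESeq2 gave Egr2 an adjusted p of 1.22e-06 against ischemia alone and none against 3 h. The ischemia call for Egr2 was lost on leaving out any of 8 of the 12 libraries in turn, the 3 IF16 libraries at 12 h among them. Against 3 h, Egr2 lost its call without any of 9 of the 12 libraries and Mknk2 without any of 10.

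Fosb had the same order of groups, at 86, 61.8 and 81.6 CPM in IF16 and 19.1, 31.9 and 52.9 CPM in AL after ischemia alone, and at 720, 443 and 486 CPM in IF16 and 345, 218 and 359 CPM in AL at 3 h. Its differences between contrasts, -2.48 ± 0.76 and -2.20 ± 0.76, were not called (adjusted p = 0.389 and 0.328, edgeR). Over the list of 30, the median log2 fold change of IF16 over AL was 0.12 in sham, 0.44 after ischemia alone, 0.48 at 3 h, -1.32 at 12 h, 0.12 at 24 h and -0.15 at 72 h, while the median of all genes lay between -0.02 and 0.02 at every stage. No member was called by edgeR at any of the 6 stages, and 12 of the 30 were higher at an unadjusted p under 0.05 after ischemia alone (9.16% of all genes were).

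**Figure D3:**
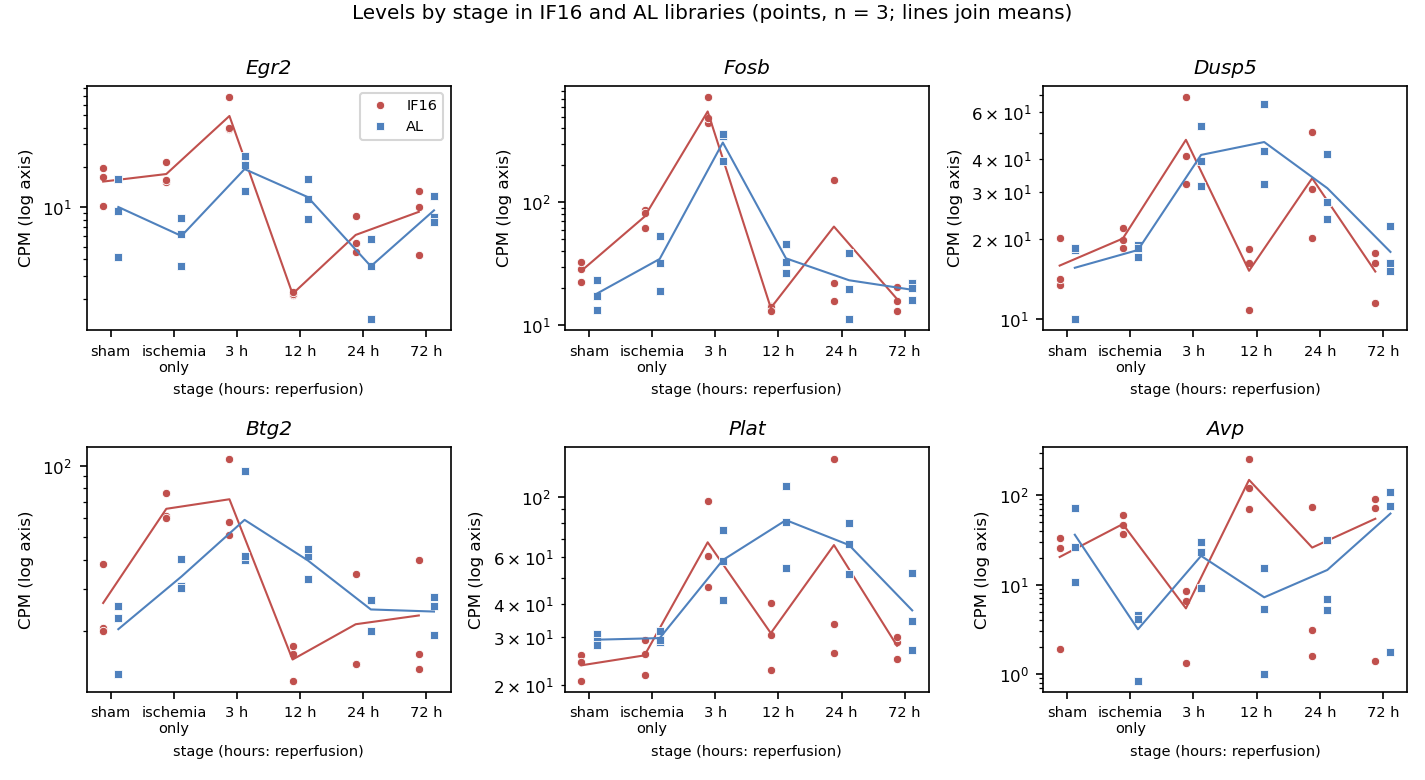
Levels of Egr2, Fosb, Dusp5, Btg2, Plat and Avp by stage, in TMM-scaled CPM on log axes. Circles are IF16 libraries and squares AL libraries, 3 of each at a stage, and lines join the means. For Egr2 and Fosb the IF16 libraries lie above AL after ischemia alone and at 3 h and below AL at 12 h.

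Each regimen was also set against its own sham libraries. In IF16, 14 genes were called against IF16 sham, 3 higher (0.0183%) and 11 lower (0.0673%), among 16355 genes (0.0856% in all), and 3 of the 11 were immediate early genes, namely Nr4a1 (-1.70 ± 0.23, adjusted p = 0.00831, edgeR), Egr2 (-2.82 ± 0.39, adjusted p = 0.0114, edgeR) and Egr4 (-1.37 ± 0.21, adjusted p = 0.0191, edgeR). In AL, 251 genes were called against AL sham, 175 higher (1.06%) and 76 lower (0.462%), or 1.53% in all, and 7 of the 175 were immediate early genes. These were Maff, Fosl1, Dusp5, Atf3, Jun, Gadd45g and Gadd45b, with increases of 1.59 to 5.05 on the log2 scale. The list's median against sham was -0.38 in IF16 and 0.79 in AL. Plat rose in AL (1.49 ± 0.27, adjusted p = 0.0198, edgeR), and in IF16 its log2 fold change against sham was 0.42 ± 0.47 (adjusted p = 0.697, edgeR). The test of the difference itself, the 12 h contrast against the sham contrast of IF16 and AL, called 0 of 16861 genes with edgeR, with 1958 at an unadjusted p under 0.05 (11.6%) and a smallest adjusted p of 0.292, so a response that differed by regimen was not shown by that test. DESeq2 called 3, all lower, namely Egr2 (-3.09 ± 0.62, adjusted p = 0.0108), Mknk2 (-0.70 ± 0.15, adjusted p = 0.0297) and Capn15, a calpain family protease (-0.80 ± 0.18, adjusted p = 0.0298). Leaving out any 1 of the 6 libraries of either test changed its count by over 1.5 times, to between 1 and 224 calls in IF16 and between 1 and 1347 in AL.

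Matrix and protease genes followed. Of 16 tested members of 18, 15 had a negative log2 fold change, 4 were below AL in all 3 IF16 libraries (25%, against 4.77% of all genes) and the median was -1.51. Beside Plat, Plaur, the receptor of the urokinase plasminogen activator, was at 0.84, 4.16 and 2.48 CPM in IF16 and at 45.2, 6.15 and 8.98 CPM in AL (-3.00 ± 0.85). Adamts9, a secreted metalloprotease, was at 3.51, 7.88 and 6.12 CPM in IF16 and at 47.7, 9.37 and 20.9 CPM in AL (-2.16 ± 0.63). Timp1, an inhibitor of metalloproteases, overlapped, at 1.48, 5.18 and 4.41 CPM in IF16 and 37.5, 4.33 and 18.4 CPM in AL. AL replicate 1 was the highest AL library for 14 of the 16, and the median without it was -0.74.

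Chemokines and cytokines differed widely between the AL libraries. Of 21 genes, 17 were tested, 15 were negative and the median was -1.89. Only 1, Cxcl1, a neutrophil chemokine, was without overlap (5.88%, near the background of 4.77%). Cxcl1 was at 0, 0.171 and 0.138 CPM in IF16 and 7.36, 0.192 and 3.84 CPM in AL. Its levels in replicate 2 of IF16 and of AL were nearly equal and near the floor, so its lack of overlap rests on a few reads. Lif, a cytokine of the IL-6 family, was at 0.791, 3.9 and 1.15 CPM in IF16 and 49.4, 3.75 and 7.81 CPM in AL. Il11 of the same family was at 0.445, 0.514 and 0.276 CPM in IF16 and 24.2, 0.24 and 0.903 CPM in AL. Cxcl1 and Il11 were too low in IF16 to pass the low-count filter from those libraries alone, so the counts of this list are a description. AL replicate 1 was highest for 15 of the 17, and without it the list's median was -0.17, and without IF16 replicate 2 it was -3.50. Genes of IL-6 family signalling and its STAT3 feedback, receptors among them, had a median of -1.35, with 13 of 14 negative and 3 without overlap. One of these 3 was Il6ra, a receptor chain, at 6.43, 5.31 and 6.58 CPM in IF16 and 12.8, 7.16 and 15.3 CPM in AL. Another was Junb, which is also counted among the immediate early genes above. Without AL replicate 1 the median of this IL-6 family list was -0.70. Genes of the NF-κB pathway had a median of -0.82, with 16 of 17 negative and 2 without overlap, Nfkbiz, an inducible nuclear cofactor (-1.94 ± 0.56), and Nfkbia, the inhibitor IκBα (-1.08 ± 0.38). That median was -0.40 without AL replicate 1 and -1.09 without AL replicate 2.

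Markers of neutrophils and of monocytes and border macrophages had negative medians. Of 11 neutrophil markers 6 had counts enough to be tested, and 4 were below AL in all 3 IF16 libraries (66.7%). S100a9 and Retnlg were too low in IF16 to pass the low-count filter from those libraries alone, so the counts of this list are a description. S100a9, a calcium-binding protein abundant in neutrophils, was at 0.247, 0.214 and 0.506 CPM in IF16 and at 29.9, 1.39 and 2.39 CPM in AL (-5.11 ± 1.18). Retnlg was at 0.0494, 0.0857 and 0.092 CPM in IF16 and at 8.05, 0.529 and 0.903 CPM in AL. Lcn2, lipocalin 2, which reactive astrocytes also make, was at 2.57, 6.08 and 6.12 CPM in IF16 and at 87.4, 9.28 and 35.5 CPM in AL (-3.16 ± 0.75). The summed level of the 11 markers was 9.19 to 12.3 CPM in IF16 and 17.6 to 157 CPM in AL, the defining granule genes Mpo, Elane and Camp had at most 13 counts in any of the 6 libraries, and the list's median without AL replicate 1 was -1.78. Of 11 markers of monocytes and border macrophages, 9 were tested, all 9 were negative and 6 were without overlap (66.7%). F13a1, a coagulation factor of border macrophages, was at 2.42, 1.97 and 1.79 CPM in IF16 and 6.8, 3.85 and 3.52 CPM in AL, and Pf4 at 0.346, 0.814 and 0.598 CPM in IF16 and 3.47, 0.865 and 1.17 CPM in AL. For Pf4 the levels in replicate 2 of IF16 and of AL were nearly equal. Ccr2, the receptor of entering monocytes, overlapped, at 0.445, 0.3 and 0.368 CPM in IF16 and 4.21, 0.337 and 1.17 CPM in AL. Pf4 and Ccr2 were too low in IF16 to pass the low-count filter from those libraries alone, so the counts of this list are a description too. The summed level of the monocyte and macrophage list was 7.88 to 10.5 CPM in IF16 and 14.7 to 32.8 CPM in AL, and its median was -1.32, or -0.90 without AL replicate 1.

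**Figure D4:**
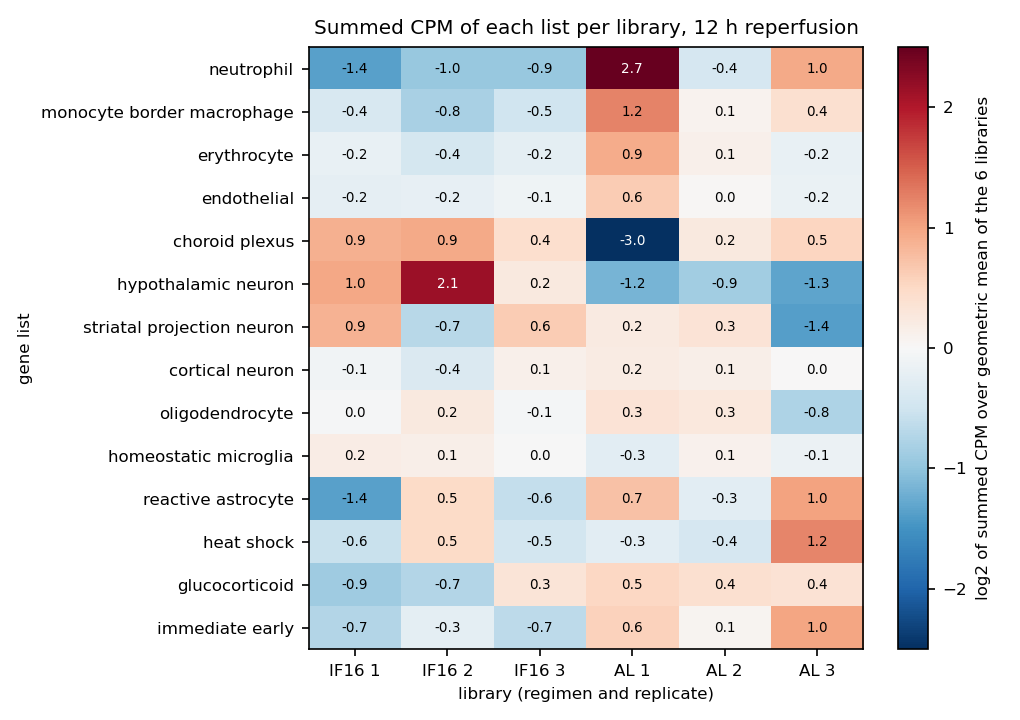
Summed CPM of 14 gene lists in each of the 6 libraries at 12 h of reperfusion, as the log2 of the sum over the geometric mean of the 6. Columns are libraries, IF16 1 to 3 on the left and AL 1 to 3 on the right, red is above and blue below the mean. AL 1 is highest for neutrophil markers (2.7) and lowest for choroid plexus markers (-3.0), IF16 2 is highest for hypothalamic markers (2.1), and AL 3 is highest for heat shock genes (1.2).

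Genes of adhesion and leukocyte entry, a list that holds leukocyte integrins beside vessel molecules, had a median of -0.57. Of the 11 tested, 10 were negative and 3 were without overlap, and AL replicate 1 was the highest AL library for 8. Without AL replicate 1 the median was -0.28 and 8 of the 11 were negative. Pecam1, an endothelial junction protein, was at 24.9, 31.4 and 32.1 CPM in IF16 and 71.8, 36.2 and 42.8 CPM in AL. Selp, P-selectin, was at 0.0989, 0.386 and 0.368 CPM in IF16 and 6.38, 0.24 and 2.84 CPM in AL. Selp was too low in IF16 to pass the low-count filter from those libraries alone, so the counts of this list are a description. Endothelial markers did not move one way, with 1 of 12 below and 2 above AL without overlap and a median of -0.33, which was -0.02 without AL replicate 1. Tek, the receptor of angiopoietins, was at 17.6, 12.9 and 7.77 CPM in IF16 and 7.68, 5.53 and 6.86 CPM in AL, while Cdh5, the endothelial cadherin, was at 20.7, 21.2 and 16.9 CPM in IF16 and 90, 20.6 and 28.4 CPM in AL. Hbb-bs, a hemoglobin chain whose reads may be shared with near-identical genes, was at 57.7, 42.8 and 58.6 CPM in IF16 and 187, 62.6 and 54.3 CPM in AL, so AL replicate 1 was also highest for this transcript of red cells. The 6 tested erythrocyte markers had a median of -0.72, or -0.05 without that library.

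Reactive astrocyte genes were negative for all 17 tested members, with a median of -1.25 and 1 member, Lcn2, without overlap (5.88%, near the background). AL replicate 2 was the lowest AL library for all 17, and the median was -2.05 without IF16 replicate 2 and -0.88 without IF16 replicate 1. Steap4, a metalloreductase, was at 0.692, 0.685 and 0.828 CPM in IF16 and 5.46, 0.481 and 3.39 CPM in AL. Constitutive astrocyte markers had a median of 0.04 with none of 10 without overlap. Homeostatic microglia markers had a median of 0.27, with 11 of 12 positive and 1 above AL without overlap, Olfml3, at 19, 19.4 and 12.8 CPM in IF16 and 10.9, 12.2 and 11.9 CPM in AL. The microglia median lay between 0.14 (without IF16 replicate 1) and 0.47 (without AL replicate 2). Genes of activated myeloid cells had a median of -0.32 over 15 tested, which single libraries moved to -0.04 (without IF16 replicate 1), -0.08 (without AL replicate 1) or -1.39 (without IF16 replicate 2).

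Hypoxia and glycolysis genes were negative in 16 of 18, with a median of -0.42 and 4 without overlap (22.2%). Without AL replicate 1 the median was -0.23 and 13 of 18 were negative. Adm, adrenomedullin, a vasodilator peptide, was at 1.88, 3.73 and 3.72 CPM in IF16 and 20.2, 6.25 and 8.13 CPM in AL (-1.89 ± 0.45). Vegfa, the vascular growth factor, was at 65.6, 68.7 and 62.5 CPM in IF16 and 129, 71.3 and 117 CPM in AL (-0.69 ± 0.21). Heat shock genes had no member without overlap among 19, and the median of -0.29 became 0.29 without AL replicate 3 and -0.70 without IF16 replicate 2. Hspa1a, the inducible chaperone HSP70, was at 13.4, 184 and 16.7 CPM in IF16 and 367, 18.9 and 899 CPM in AL, with reads that may be shared with its near-identical copy. Genes of the ER stress response had a median of -0.43 with 1 of 19 without overlap, and the median was -0.08 without AL replicate 3. The p53 and apoptosis list had a median of -0.25, with 3 of 18 below and 1 above AL. That median was -0.45 without IF16 replicate 2 and -0.16 without AL replicate 3. Cdkn1a, the cell cycle inhibitor p21, was at 13.6, 72.4 and 93.4 CPM in IF16 and 225, 153 and 197 CPM in AL (-1.69 ± 0.68). Among antioxidant genes the metallothioneins Mt1 (-0.84 ± 0.32) and Mt2 (-1.24 ± 0.49) were below AL without overlap, while the list's median over 17 was -0.18, or 0.01 without AL replicate 3.

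Genes that respond to fasting hormones and to food were then examined. All 16 glucocorticoid-responsive genes had a negative log2 fold change, 6 were below AL in all 3 IF16 libraries (37.5%, against 4.77% of all genes) and the median was -0.72. Errfi1, a feedback inhibitor of the EGF receptor, was at 22.8, 30.8 and 39.1 CPM in IF16 and 83.9, 48 and 122 CPM in AL (-1.46 ± 0.37) without overlap. Per1, a clock gene that glucocorticoids induce, overlapped, at 67.3, 65.6 and 107 CPM in IF16 and 138, 105 and 149 CPM in AL (-0.71 ± 0.24). IF16 replicate 3 was the highest IF16 library for all 16 genes. Fkbp5, a classical target of the receptor and 1 of the 6 without overlap, named after its values were seen, was at 34.7, 35.7 and 107 CPM in IF16 and 120, 130 and 112 CPM in AL. The list's median was -1.27 without IF16 replicate 3 and -0.50 without IF16 replicate 1. The summed level of the list was 620, 684 and 1430 CPM in IF16 and 1640, 1510 and 1470 CPM in AL. Of the 6, Lcn2, Dusp1, Cdkn1a and Pdk4 also stand in other lists described here. Clock genes as a whole had a median of 0.00 over 19, with 1 above AL without overlap. Nr1d2, a repressor of the clock, overlapped by 1 library, at 79.9, 55.1 and 97.4 CPM in IF16 and 42.6, 56.4 and 43.2 CPM in AL (0.70 ± 0.19), and Bhlhe40 overlapped too, at 63.3, 74.6 and 90.3 CPM in IF16 and 112, 90.1 and 128 CPM in AL (-0.53 ± 0.18).

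Ketone and fatty acid oxidation genes had a median of 0.01 over 23, with 3 below AL without overlap. Angptl4, an inhibitor of lipoprotein lipase that fasting, hypoxia and glucocorticoids induce, was at 2.37, 5.14 and 9.2 CPM in IF16 and 30.9, 12.6 and 25.2 CPM in AL (-2.05 ± 0.58). Ucp2, a mitochondrial carrier, was at 39.7, 61.9 and 62.9 CPM in IF16 and 122, 80.9 and 89.4 CPM in AL (-0.84 ± 0.29). The third was Pdk4, a kinase that holds pyruvate back from oxidation. The insulin, mTOR and FOXO list had a median of -0.04 over 21, with 3 below and 1 above AL without overlap. Irs2, the insulin receptor substrate, was at 56.8, 51.5 and 75.1 CPM in IF16 and 130, 77.2 and 103 CPM in AL (-0.76 ± 0.19), Igfbp3, a carrier of insulin-like growth factors, had -1.54 ± 0.40, and Sik1, a salt-inducible kinase, had -1.09 ± 0.34. Cholesterol synthesis genes had a median of -0.22 over 20, or 0.16 without AL replicate 1, and none was without overlap. Autophagy and lysosome genes (median 0.02 over 19), oxidative phosphorylation genes (0.03 over 19), interferon-stimulated genes (-0.20 over 22), complement genes (-0.14 over 12) and proliferation genes (-0.09 over 14) each had at most 1 member without overlap. Of these medians, 3 turned positive without a library, interferon-stimulated genes to 0.22 and proliferation genes to 0.06 without AL replicate 1, and complement genes to 0.04 without IF16 replicate 1.

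Medians of the neuronal lists differed by region. General neuron markers had a median of 0.08 over 12, synapse and receptor genes 0.02 over 19, interneuron markers 0.03 over 11, hippocampal markers 0.03 over 10 and thalamic markers 0.09 over 11. Of the 10 hippocampal markers 2 were below AL without overlap (20%, against 4.77% of all genes), the summed level of the list was 404 to 468 CPM in IF16 and 550 to 635 CPM in AL, and its median was -0.24 without AL replicate 1. Striatal projection neuron markers had a median of 0.89, with 13 of 14 positive and none without overlap, and the median lay between 0.43 (without AL replicate 3) and 1.47 (without AL replicate 2). Drd1, the dopamine D1 receptor, was at 43.4, 12.6 and 38.4 CPM in IF16 and 13.6, 25.4 and 6.46 CPM in AL, and IF16 replicate 2 was the lowest IF16 library for all 14. Cortical markers had a median of 0.36 over 12 (0.17 without AL replicate 3, 0.61 without IF16 replicate 2). Of the 12, 2 were below AL without overlap (16.7%, against 4.77% of all genes) and none was above. The list's summed level was 1150 to 1620 CPM in IF16 and 1490 to 1710 CPM in AL. Nptx1, a synaptic pentraxin induced by activity, was at 350, 397 and 516 CPM in IF16 and 885, 626 and 802 CPM in AL (-0.88 ± 0.21). The hippocampal list held Neurod2 at 104, 137 and 137 CPM in IF16 and 196, 171 and 226 CPM in AL (-0.65 ± 0.16). Oligodendrocyte markers had a median of 0.30, with 3 of 10 above AL without overlap (30%, against 3.79% of all genes), among them the myelin genes Mog (0.63 ± 0.23) and Cnp (0.51 ± 0.20). AL replicate 3 was the lowest AL library for 9 of the 10, and the median without it was 0.09, or 0.48 without AL replicate 1. Growth factor genes had a median of -0.68 over 13, or -1.23 without IF16 replicate 2 and -0.52 without IF16 replicate 1. Feeding neuropeptides had 0.32 over 14, or 0.05 without IF16 replicate 2 and 0.66 without AL replicate 2. Choroid plexus markers had 0.66 over 10, or 0.21 without AL replicate 1 and 1.23 without AL replicate 3, and the marker lists of oligodendrocyte precursors, mural cells, meningeal fibroblasts, ependymal cells and lymphocytes had medians from -0.19 to 0.14.

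**Figure D5:**
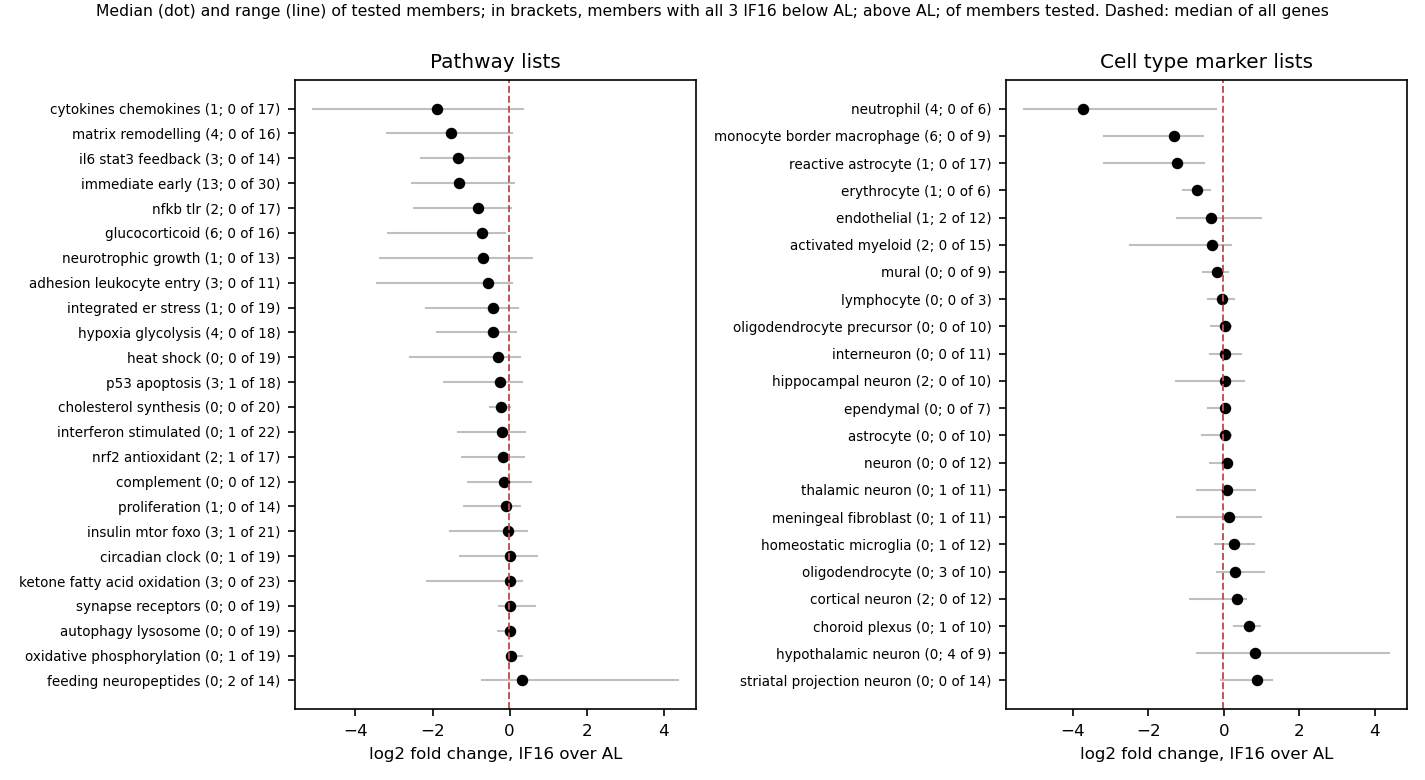
Median (dot) and range (line) of the log2 fold change of IF16 over AL at 12 h for 24 pathway lists and 22 cell type lists, with the median of all genes dashed. Brackets give the members whose 3 IF16 libraries all lay below AL, then those all above AL, of the members tested. By count, immediate early genes have the most members below AL (13 of 30) and hypothalamic markers the most above (4 of 9). Neutrophil markers (4 of 6) and monocyte and border macrophage markers (6 of 9) have larger shares below AL. Both lists hold tested members too low in IF16 to pass the low-count filter from those libraries alone, so their shares are a description.

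The other fasting regimens at 12 h showed where IF16 stood among them. The contrasts below share the IF16 or the AL libraries with the comparison above. No gene was called by edgeR between IF16 and IF12 (0%, with 229 at an unadjusted p under 0.05, 1.41%, and 0 by DESeq2) or between IF16 and EOD (0%, with 991 at an unadjusted p under 0.05, 6.1%, and 14 by DESeq2). Fosb was at 14.4, 14 and 13.1 CPM in IF16, 23.2, 15.3 and 18.6 CPM in IF12, 12, 14.6 and 16.4 CPM in EOD and 45.4, 32.9 and 26.8 CPM in AL, so all 9 fasted libraries lay below AL. The immediate early list had a median of -0.78 for IF12 over AL and -0.75 for EOD over AL, beside -1.32 for IF16 over AL. Egr2 was at 2.13, 2.18 and 2.25 CPM in IF16, 10.7, 5 and 10.9 CPM in IF12, 1.48, 4.8 and 8.54 CPM in EOD and 8.05, 16.2 and 11.5 CPM in AL, and IF16 over IF12 was -2.02 ± 0.51 (adjusted p = 0.999, edgeR). Avp was at 120, 258 and 69.8 CPM in IF16 and 63.6, 84.5 and 71.3 CPM in IF12, but at 0.508, 2.63 and 4.03 CPM in EOD and 15.3, 5.38 and 0.993 CPM in AL. Vasopressin transcripts thus separated the 6 libraries of daily fasting from the 6 of EOD and AL, and Oxt did so as well, at 27.6, 27.5 and 38.6 CPM in IF12 and 0.381, 1.11 and 1.03 CPM in EOD. The order of IF16 and AL for Avp differed by stage. In sham it was at 1.91, 33.5 and 25.6 CPM in IF16 and 26.1, 71.7 and 10.7 CPM in AL, after ischemia alone at 36.8, 46.4 and 59.9 CPM in IF16 and 0.842, 4.58 and 4.07 CPM in AL, and at 3 h at 1.31, 8.44 and 6.5 CPM in IF16 and 9.17, 23.5 and 30.3 CPM in AL. IF16 thus lay above AL without overlap after ischemia alone as at 12 h, and below AL without overlap at 3 h.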

How the data were processed

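The authors deposited a table of whole-number read counts per gene for 72 libraries, with an FPKM value beside each count (fragments per kilobase per 1000000 fragments). Recomputed FPKM values differed from the deposited ones by a relative 1.8e-07 at most over 1453690 values. The submitters' processing notes name CASAVA, TopHat2, DESeq2 and the builds GRCm38 and mm10. No source used here gives their versions, the counting tool or its strand setting. Of 35275 gene identifiers, 34490 had a symbol in GENCODE on GRCm38.

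Counts were tested with edgeR 4.0.16 (quasi-likelihood F-test, TMM scaling, low-count filter, robust dispersion) in R 4.3.3, with Benjamini-Hochberg adjusted p-values over all genes tested and a threshold of 0.05. The 12 libraries at 12 h shared 1 fit. DESeq2 1.42.0, other scalings, filters, sample sets and a replicate block were alternatives, as was leaving out each library. Turning robust dispersion off and the tests against ischemia alone and 3 h were chosen after seeing the data. The code was tested on simulated data. Same-numbered IF16 and AL libraries did not deviate together (correlations -0.06, -0.29 and -0.11), so numbers were not taken as pairs. Library pairs of a group differed by a chi-square of 10.6 to 84.8 per gene, beyond counting noise.

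Named genes were, with no call, the 10 of smallest p in each direction with a mean of at least 1 CPM in a group and no overlap, plus up to 4 members of each of 46 lists (646 genes) by p. Genes beyond these were chosen after their values were seen, among them Ttr, Mknk2, Capn15 and Fkbp5. The members and lists were chosen with earlier results of these data known.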

Additional observations from a re-analysis of the deposited data

Results flagged for a closer look

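A set of 110 genes was checked, which holds some genes not named here and lacks Pdk4. Of the 110, 74 had no overlap of IF16 and AL at 12 h. For 26 of these all 3 IF16 libraries lay on the other side of AL at another stage. The share of all genes that did so was not counted, so the 26 describe the checked genes only. After ischemia alone, 9.16% of all genes were higher in IF16 at an unadjusted p under 0.05 (edgeR). The difference between contrasts was called by edgeR for Egr2 against ischemia alone and 3 h (-3.99 and -3.8, adjusted p = 0.0289 and 0.0271) and for Mknk2 against 3 h (-0.86, adjusted p = 0.0271), where Egr2 had a log2 fold change of IF16 over AL of 1.53 and 1.35 and Mknk2 of 0.32. The other differences tested, against sham, ischemia alone or 3 h, were not called (adjusted p from 0.258 to 0.414 in all but Olfml3, at 0.472, edgeR). For Grasp, with 0.51 at 3 h, the difference of -1.62 missed the threshold (adjusted p = 0.258, edgeR) but was called with all 72 libraries in the fit (adjusted p = 0.044, edgeR), without AL replicate 2 at 12 h (-1.88, adjusted p = 0.027, edgeR) and by DESeq2 (adjusted p = 0.0289).

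Genes lower in IF16 at 12 h were above AL in all 3 IF16 libraries at these stages, with log2 fold changes of IF16 over AL there. After ischemia alone these were Fosb (1.12), Btg2 (0.93), Junb (0.6), Fosl2 (1), Fos (0.92), Dusp1 (0.59), Egr4 (0.72), Nr4a1 (1.14), Nfkbiz (0.76), Vegfa (0.4), Irs2 (0.68), Sik1 (1.1), Capn15 (0.28) and Pxdn (0.37). At 3 h they were Fosb (0.85), Gm42418 (2.15), Egr4 (1.04) and Pf4 (0.5), and in sham Il6ra (0.66), Mknk2 (0.15), Capn15 (0.4) and Pxdn (0.59), while Pf4 was too low in sham to be fitted there. At later stages they were Nr4a1 at 24 h (1.41) and Vegfa at 72 h (0.57), whose differences from 12 h were not tested.

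Genes higher in IF16 at 12 h were below AL in all 3 IF16 libraries at these stages. At 3 h they were Avp (-1.93), Oxt (-3.4) and Hs3st5 (-0.74). The myelin genes Mog (-0.42 in sham and -0.57 after ischemia alone) and Cnp (-0.46 and -0.48) and the microglial gene Olfml3 (-0.45 after ischemia alone) had that order too, and Olfml3 again at 72 h (-1.82), where the difference from 12 h was not tested.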

How the results depend on the processing

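The count of 0 genes for IF16 over AL at 12 h held under every edgeR setting with all libraries, and DESeq2 called 86. Leaving out 1 library gave 0 to 9 calls. Without AL replicate 1 there were 2 (Oxt higher, Krt2 lower, both chosen after the values were seen) and without AL replicate 2 there were 9, all lower, among them Plat, Rara, Rtn4rl2 and Grasp. The difference from the sham contrast had 0 calls, 3 with DESeq2 and 0 to 19 leaving out a library, the 19 without AL replicate 2 at 12 h. IF16 against EOD had 14 calls with DESeq2. For 12 h against sham in IF16, 14 calls became 472 with DESeq2, 64 with no filter, 7 with only the groups compared and 1 to 224 leaving out a library (224 without IF16 replicate 1 at 12 h). In AL, 251 became 843 with DESeq2, 39 with only the groups compared, 623 with all 72 libraries and 1 to 1347 leaving out a library (1347 without AL replicate 2 at 12 h). With a replicate block these were 46 in IF16 and 120 in AL, and the block left the other counts within 1.5 times. Against ischemia alone, 1 call became 3 with DESeq2, 0 with no filter, 4 with only the groups compared, 0 with all 72 libraries and 0 to 16 leaving out a library. Against 3 h, 2 calls became 0 with library totals alone, 31 with DESeq2, 0 with no filter, 1 with only the groups compared and 0 to 17 leaving out a library. The cause was not tested. With 3 libraries a group, an exact permutation test of 1 gene cannot go below 0.1. No log2 fold change of the 110 checked genes reversed under the settings run.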

Other observations

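Basement membrane genes, chosen after their values were seen, are given here as values. Col4a1, a chain of collagen IV, was at 44.5, 65.4 and 62.4 CPM in IF16 and at 182, 81.5 and 158 CPM in AL (log2 fold change -1.30 ± 0.34). Col4a2, its partner chain, was at 50.5, 68.5 and 59.2 CPM in IF16 and at 169, 80.1 and 132 CPM in AL. Pxdn, peroxidasin, which cross-links collagen IV, was at 49.7, 40.7 and 40.7 CPM in IF16 and at 77.5, 56.9 and 83.3 CPM in AL. The groups did not overlap for any of the 3, and none was called by edgeR.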
